A study of Mus musculus with 17 samples.

Results

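The genes described here encode coagulation and complement proteins that hepatocytes secrete into plasma. They are 36 genes taken by name, 22 of coagulation and fibrinolysis and 14 of complement, out of 55536 gene identifiers in the RNA-seq tables. All 36 passed the filter on low counts that left 14393 genes for testing. RNA came from hepatocytes of 3-month-old C57BL/6J mice of the ApcDHep genotype, isolated by perfusing the liver with collagenase. Apc restrains β-catenin signalling, and the sources used here do not give the driver of its loss in hepatocytes. The 6 libraries called WRE-edited here carry the label DLK1DWRE, an edit at a site bound by β-catenin that lies before the DLK1/DIO3 locus, and the 5 libraries called Rosa26-edited carry an edit of Rosa26, a locus often used as a neutral target. Both groups share the ApcDHep genotype, 1 month of AAV8 (a viral vector that reaches hepatocytes) with SaCas9 constructs (a compact Cas9 nuclease) and tamoxifen (2 mg, 7 days), so no group has unedited hepatocytes or hepatocytes with intact Apc. Whether each library is a separate animal is not stated in the labels, so a p-value here reflects only how these libraries varied, which may be technical. WRE-edited 4 and WRE-edited 6 carry the same number in their names.

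Coagulation is a relay of plasma proteases. Factors that carry vitamin K-dependent modifications (F2, F7, F9, F10) and the contact factors (F11, F12, Klkb1, Kng1) lead to thrombin, which turns fibrinogen into fibrin. Serpins and protein C hold the relay back, and plasmin dissolves the clot. Complement runs through the lectin, classical and alternative pathways to the cleavage of C3, and then to the membrane attack complex built from C5 to C9. The liver is the main source of most of these proteins, and several of them are acute phase proteins whose transcription responds to interleukin-6.

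Library totals lay between 20727024 and 38935115 counts. The library names place the libraries in 3 runs. Run r770 had 3 libraries of each edit, r595 had 1 WRE-edited and 2 Rosa26-edited libraries, and r711 had 2 WRE-edited libraries without a control. The share of mitochondrial ribosomal RNA was 2.29% to 3.00% in r595 and 19.02% to 29.09% in the other runs. Hepatocyte markers (9 of 10 listed matched) summed to between 45908 and 55675 CPM (counts scaled to library size with TMM factors), against at most 1240 CPM for macrophage, 214 CPM for endothelial and 122 CPM for stellate cell and fibroblast markers and at most 24.6 CPM for markers of cholangiocytes, of neutrophils and lymphocytes or of platelets. No marker was at 0 in every library, while 5 of 8 cholangiocyte, 5 of 8 neutrophil and lymphocyte and 5 of 9 platelet markers were at 0 in some. The highest macrophage sum, 1240 CPM, was in Rosa26-edited 5, and the next, 859 CPM, in Rosa26-edited 2. Of the 1240 CPM, the marker Marco gave 370 CPM, and it was between 11.2 and 32.9 CPM in the other libraries. Clec4f was lower in Rosa26-edited 5 than in Rosa26-edited 2 (120 against 220 CPM), and Cd5l higher (378 against 335 CPM).

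Promoter sequences of the fibrinogen genes and of Hrg are shown because the fibrinogen genes form 1 cluster in which Fgg over Fgb varied little between libraries (given with the levels), and Hrg had the smallest p. The windows are the 250 bases before the annotated start, in RefSeq's annotation of GRCm38.p6, 5′ to 3′ on the strand of the gene, with motif matches in capitals. Fgg, Fga and Fgb lie side by side on chromosome 3, between 83007724 and 83049863.
Fga (chr3:83025903-83026152, plus strand): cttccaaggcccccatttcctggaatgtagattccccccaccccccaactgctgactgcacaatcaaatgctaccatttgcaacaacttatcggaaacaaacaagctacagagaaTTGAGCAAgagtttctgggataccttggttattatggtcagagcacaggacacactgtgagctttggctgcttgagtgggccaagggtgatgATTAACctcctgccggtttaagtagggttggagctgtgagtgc
Fgb (chr3:83049864-83050113, minus strand): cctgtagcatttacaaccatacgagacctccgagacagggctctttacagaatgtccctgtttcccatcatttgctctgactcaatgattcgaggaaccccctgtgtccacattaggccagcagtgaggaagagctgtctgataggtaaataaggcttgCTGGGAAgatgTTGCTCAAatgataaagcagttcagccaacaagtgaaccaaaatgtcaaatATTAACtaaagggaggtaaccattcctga
Fgg (chr3:83007474-83007723, plus strand): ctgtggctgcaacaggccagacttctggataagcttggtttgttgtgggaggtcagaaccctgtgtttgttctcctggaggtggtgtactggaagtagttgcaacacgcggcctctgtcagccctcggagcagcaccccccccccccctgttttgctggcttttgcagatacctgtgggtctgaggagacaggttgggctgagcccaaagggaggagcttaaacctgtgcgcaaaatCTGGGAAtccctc
Hrg (chr16:22950822-22951071, plus strand): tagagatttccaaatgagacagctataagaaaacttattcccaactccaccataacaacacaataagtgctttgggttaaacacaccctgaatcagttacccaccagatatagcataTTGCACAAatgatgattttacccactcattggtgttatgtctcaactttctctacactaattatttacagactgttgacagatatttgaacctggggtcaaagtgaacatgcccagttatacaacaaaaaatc
The search used 4 motifs on both strands. They were an HNF1 half-site (GTTAAT or ATTAAC), a C/EBP-like site (TTGCNNAA or TTNNGCAA), a type II interleukin-6 response element (CTGGGAA or TTCCCAG) and a TCF/LEF site (ATCAAAG or CTTTGAT). HNF1 and C/EBP factors are liver-enriched activators, and TCF/LEF factors are the DNA-binding partners of β-catenin. Fga held ATTAAC 43 bases and TTGAGCAA 135 bases before the start. Fgb held ATTAAC at 29, TTGCTCAA at 80 and CTGGGAA at 91 bases before the start. The Fgg window held CTGGGAA at 13 bases, and the Hrg window held TTGCACAA at 133 bases.

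RefSeq windows were found for 29 of the 36 genes, 30 windows in all. Proc, Plg, Kng1, Cfi, Cfb, C4b and Masp1 had none in the table used. The HNF1 letters were in 7 of the 30 windows (C4bp, C8a, C8b, F13b, Fga, Fgb and Vtn) and in 6.43% of all 32851 promoter windows of the same length. C/EBP-like letters were in 8 (C3, C9, F11, F9, Fga, Fgb, Hrg and Klkb1), against 9.56% of all windows. The interleukin-6 element was in 4 (F9, Fgb, Fgg and Masp2), against 9.10%, and the TCF/LEF letters were in 1 (Serpind1), against 3.21%. A match is a run of letters and not a measured binding site.

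These genes were among the most abundant transcripts of the cells. Together they held 2.07% to 4.35% of all counts of a library, and 2.87% to 4.46% once mitochondrial ribosomal RNA was left out of the total. C3, the central protein of complement, alone gave 22.0% to 38.6% of the counts of the 36 genes. Per kilobase of effective length, 31 of the 36 genes lay above the 90th percentile of the genes tested, and the lowest of them lay at the 77.8th percentile.

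C3 and Serpinc1 (antithrombin, the main inhibitor of thrombin) led the order of levels, at medians of 1636 and 1586 CPM per kilobase over the 11 libraries. C3 was first in 5 libraries and Serpinc1 in 6. The next levels were Vtn (vitronectin) at 1088, Fga at 922, Fgg at 813, Cfb (factor B of the alternative pathway) at 683 and Mbl2 (a mannose-binding lectin) at 619 CPM per kilobase. Kng1 (kininogen) was at 508, F2 (prothrombin) at 445, Fgb at 411, C4bp (C4b-binding protein) at 379, Plg (plasminogen) at 286 and Cfi (factor I, the protease that inactivates C3b) at 268 CPM per kilobase.

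From rank 14 to rank 28 the medians ran from 213 to 97.1 CPM per kilobase. In that order the genes were Serpinf2 (α2-antiplasmin), Serpind1 (heparin cofactor II), Mbl1, Proc (protein C), C8g, Hrg (histidine-rich glycoprotein), F12, Cpb2 (a carboxypeptidase that slows fibrinolysis), F10, C4b, C8a, C6, F5 (the cofactor of factor Xa), F13b (the carrier subunit of factor XIII) and Masp2 (a protease of the lectin pathway). Below them stood C9 at 74.0, C8b at 73.7, F9 at 54.2, Klkb1 (plasma prekallikrein) at 36.8 and Pros1 (protein S, the cofactor of protein C) at 35.8 CPM per kilobase. F7, the trigger protease, was at 20.7, Masp1 at 17.0 and F11 at 15.6 CPM per kilobase. The highest median was 105 times the lowest.

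Most neighbours in this order were not separated. Of the 35 neighbouring pairs, 4 stood in the same order in all 11 libraries: Cfi above Serpinf2, Masp2 above C9, F9 above Klkb1 and Pros1 above F7. F11 was the lowest in 8 libraries and Masp1 in 2. The order as a whole was alike in every pair of libraries, with Spearman's rho between 0.918 and 0.994 across the 36 genes (median 0.975; genes are not independent replicates). Deposited TPM values moved 15 ranks, by at most 3 places.

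**Figure D1:**
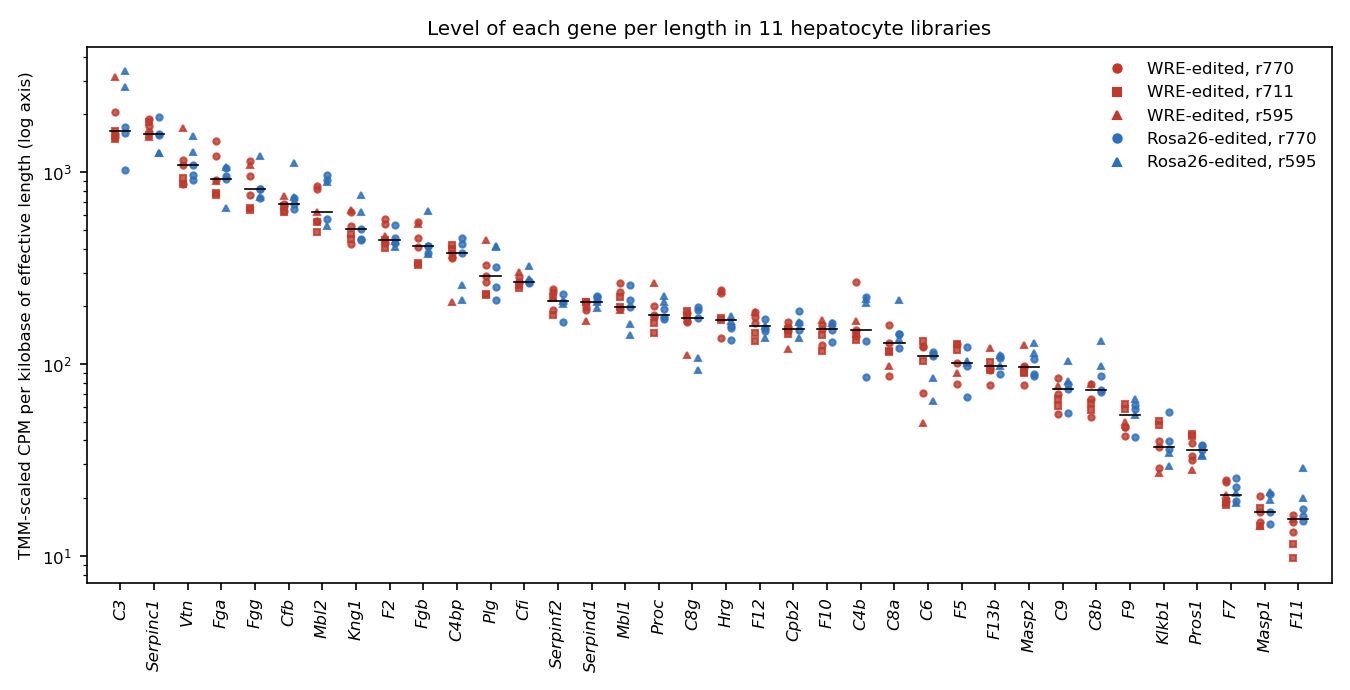
Level of each of the 36 genes in TMM-scaled CPM per kilobase of effective length (log axis), genes in order of their median (black bar). Each point is 1 library, coloured by edit and shaped by run; C3 at 1636 and Serpinc1 at 1586 lead, F11 at 15.6 is last, and neighbouring genes overlap.

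Per kilobase, the chains and subunits of 1 protein did not share 1 level. Fgg over Fgb per kilobase was between 1.78 and 2.15 in all 11 libraries, and between 0.747 and 0.911 in CPM. Which of the 2 chains stood higher thus depended on the effective lengths, 3638 to 3671 bases for Fgb and 1528 to 1558 for Fgg. Fga over Fgb was between 2.22 and 2.79 in r770, 2.29 and 2.30 in r711, and 1.67 and 1.73 in r595. C8g over C8b was between 2.01 and 3.13 in r770 and between 0.813 and 1.41 in r595. C8g encodes the small lipocalin chain of C8, from a locus apart from those of the other chains. C3 over Serpinc1 was between 0.656 and 1.19 in r770 and between 2.05 and 2.66 in r595. The estimated effective length of C3 itself varied between libraries, from 4015 to 4989 bases, which enters this ratio. Without division by length, in CPM, the ratio was between 3.55 and 6.46 in r770 and between 8.69 and 11.7 in r595.

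The comparison of WRE-edited with Rosa26-edited libraries asked whether the levels of these genes differed with the edit. No gene of the 36 passed, in edgeR's quasi-likelihood test with the run as a term and adjustment over all 14393 genes (adjusted p from 0.438 to 0.987). Over all genes tested 0.00695% passed, which was 1 gene outside this group. With DESeq2 as well 0 of 36 passed, against 0.6% of all genes (smallest adjusted p of a member 0.212). At an unadjusted p under 0.05, edgeR took 1 of 36, Hrg, against 10.1% of all genes, and DESeq2 took 5 (Hrg, F12, Serpind1, C8b and C4bp), against 11.9% of the genes it tested. Counted by direction, 4.95% of all genes were higher and 5.14% lower at that level. RNA from bulk hepatocytes cannot tell fewer cells of a kind from less RNA per cell.

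The fitted differences were small. Log2 fold changes ran from -0.34 (C8a) to 0.47 (Hrg), with a median of 0.01 for the 36 genes and 0.01 for all genes tested. The median size of the log2 fold change was 0.15, the same as the 0.15 of the 6841 tested genes at 10 CPM or more, against 0.19 over all tested. A positive value was found for 19 of 36, and for 51.7% of all genes. The 95% interval lay within 2-fold in either direction for 36 of 36 (72.5% of all genes) and within 1.5-fold for 26 of 36 (42.7%). These shares of all genes include genes under 10 CPM, and shares for the genes at 10 CPM or more are not given here. The bounds reached from -0.80 to 0.82 on the log2 scale. The 22 coagulation genes had a median of 0.10, with 15 positive, and the 14 complement genes had a median of -0.11, with 4 positive.

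Since r711 has no control, the fitted differences rest on r770 and r595, and a fold change can differ from the ratio of group means. Within r770 the median difference over the 36 genes was 0.03, with 21 positive, and within r595 it was -0.04, with 17 positive. The difference had the same sign in both runs for 26 of 36 genes, and for 60.9% of all genes tested. The interaction of run and edit passed for 0 of 36 genes after adjustment and 0 of 36 at an unadjusted p under 0.05 in edgeR, against 0% and 6.52% of the 14582 genes in that fit. The smallest interaction p of a member was 0.126 (adjusted 0.800).

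**Figure D2:**
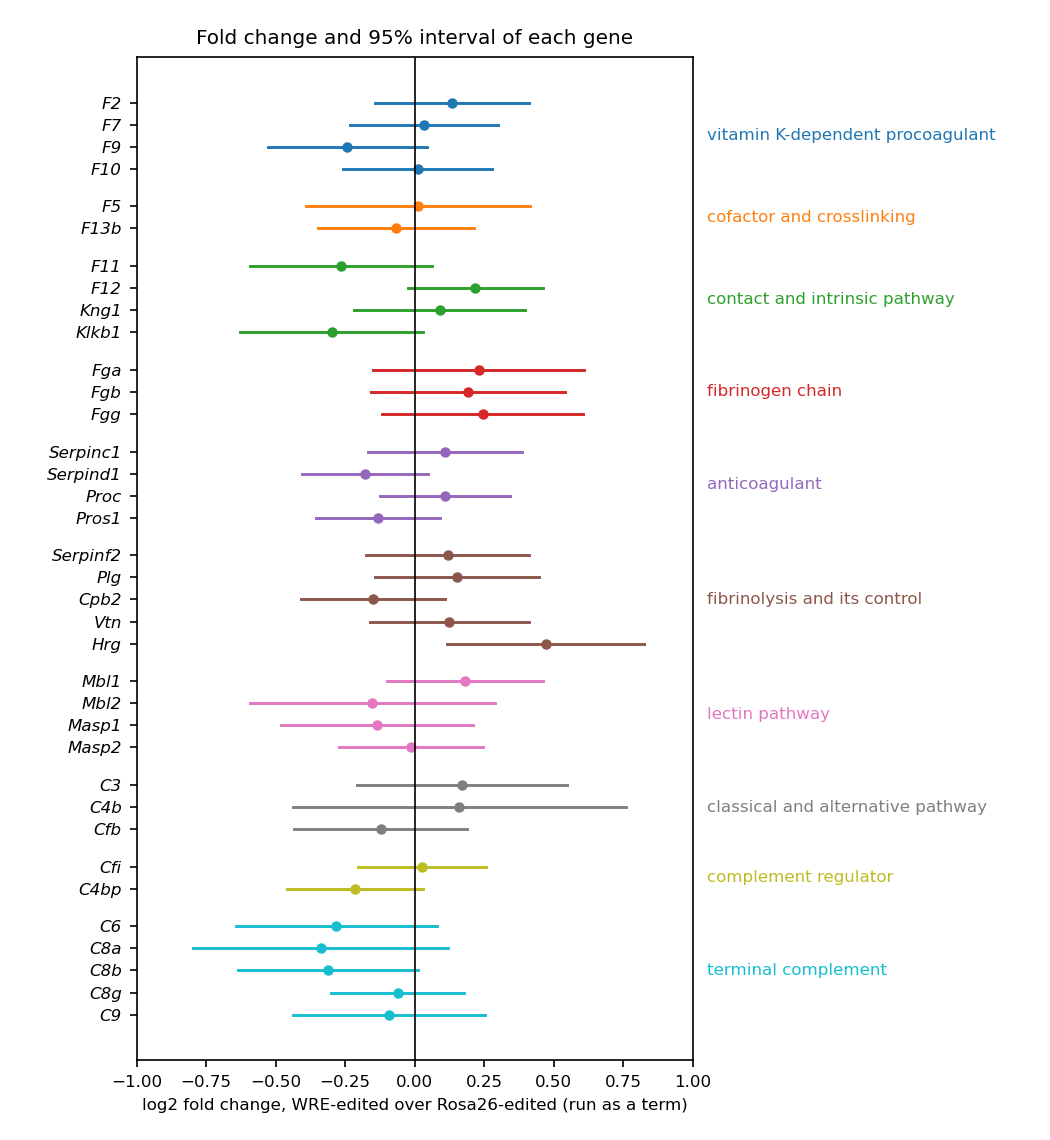
Log2 fold change of each gene, WRE-edited over Rosa26-edited, fitted with a run term (point), and its 95% interval (line), grouped and coloured by role. Intervals of 35 genes cross 0, that of Hrg runs from 0.12 to 0.82, and all 5 terminal complement genes lie left of 0.

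Hrg, a heparin- and plasminogen-binding plasma protein, had the largest difference of the 36. Its CPM was 206, 363 and 378 in the WRE-edited and 235, 206 and 242 in the Rosa26-edited libraries of r770. In r595 it was 380.4 in the WRE-edited library and 265 and 285 in the Rosa26-edited libraries, and in r711 it was 269 and 265. Thus 3 WRE-edited libraries stood above every Rosa26-edited library, while WRE-edited 1 stood among the lowest. The log2 fold change was 0.47 ± 0.16 (SE), with an unadjusted p of 0.0133 and an adjusted p of 0.438 in edgeR, and within runs the difference was 0.42 (r770) and 0.47 (r595). Its value stayed between 0.24 and 0.62 over 23 alternative fits. The smallest adjusted p among those fits, 0.110, came without WRE-edited 1. Kng1, also on chromosome 16 but not adjoining it (Hrg at chr16:22951072-22961659, Kng1 at chr16:23058220-23082078), had 0.09 ± 0.14.

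The other genes of fibrinolysis lay nearer to 0. Plg had a log2 fold change of 0.15 ± 0.14, Serpinf2 0.12 ± 0.13 and Vtn 0.12 ± 0.13. Cpb2, which removes the plasminogen-binding lysines of fibrin, had -0.15 ± 0.12. These 4 had adjusted p between 0.661 and 0.763 in edgeR.

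The 3 fibrinogen chains, which assemble into 1 hexamer, all had positive log2 fold changes, and none passed. Fga was at 1767, 2829 and 2374 CPM in the WRE-edited and 1839, 1782 and 2058 CPM in the Rosa26-edited libraries of r770. In r595 Fga was at 1789.9 CPM in the WRE-edited and 1285 and 2109 CPM in the Rosa26-edited libraries, and in r711 at 1515 and 1484 CPM. The groups overlapped, with the highest value in WRE-edited 2 and the lowest in Rosa26-edited 4.

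Fgb was at 1485, 2007 and 1666 CPM in the WRE-edited and 1497, 1508 and 1381 CPM in the Rosa26-edited libraries of r770. In r595 it was at 1969.6 against 1374 and 2314 CPM, and in r711 at 1234 and 1211 CPM. WRE-edited 2 led within r770 and Rosa26-edited 5 over all libraries. Fgg was at 1169, 1772 and 1471 CPM in the WRE-edited and 1117, 1244 and 1259 CPM in the Rosa26-edited libraries of r770. In r595 Fgg was at 1695 against 1156 and 1895 CPM, and in r711 at 981 and 1017 CPM. Rosa26-edited 5 was the highest and an r711 library the lowest for both Fgb and Fgg.

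The fitted log2 fold changes were 0.23 ± 0.18 for Fga, 0.19 ± 0.16 for Fgb and 0.24 ± 0.17 for Fgg, with adjusted p of 0.650, 0.681 and 0.609 in edgeR. Without Rosa26-edited 5 they were 0.35, 0.31 and 0.36. Without a run term they were 0.11, -0.02 and 0.02, so the direction of Fgb turned. In CPM, Fga over Fgb was 1.18 to 1.49 in r770, 1.23 in both r711 libraries and 0.909 to 0.935 in r595. Rosa26-edited 5 also had the highest sum of acute phase genes, 24887 CPM, where the other Rosa26-edited libraries began at 11074 CPM and the WRE-edited libraries ran from 9499 to 17034 CPM. The part of that library's acute phase and macrophage levels in the fibrinogen values was not tested.

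**Figure D3:**
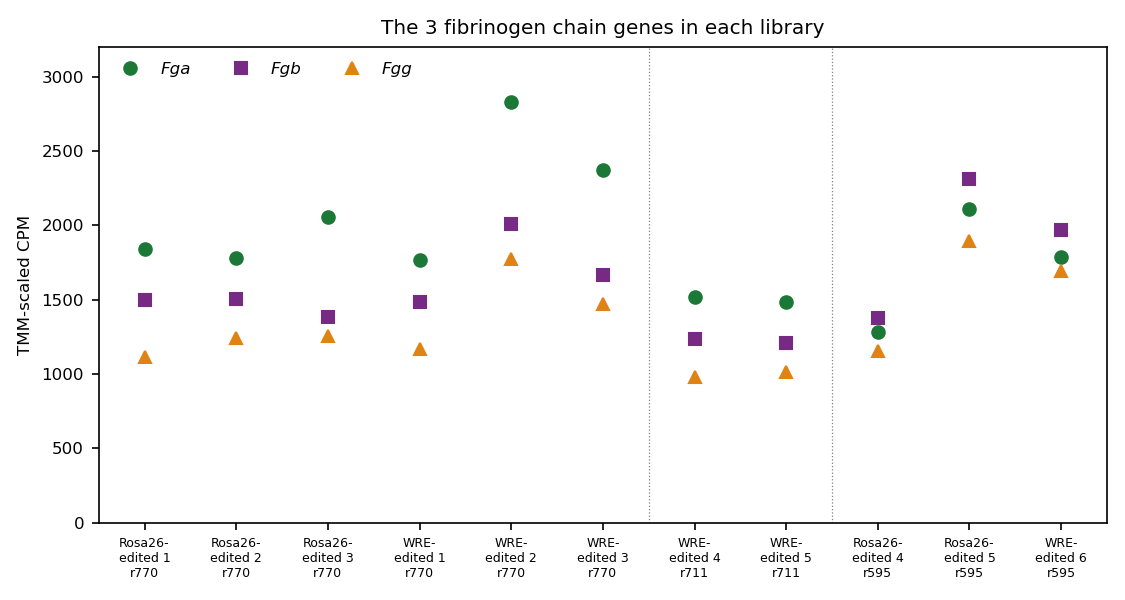
TMM-scaled CPM of Fga, Fgb and Fgg in each of the 11 libraries, ordered by run and edit, with dotted lines between runs. In r770 and r711 Fga lies above Fgb, in the 3 r595 libraries below it, while Fgg stays below Fgb throughout. These values are not divided by gene length, and per kilobase Fgg lies above Fgb.

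Among the vitamin K-dependent procoagulants, F9 (factor IX) had the largest difference. It was at 122, 122 and 108 CPM in the WRE-edited and 150.3, 156 and 107 CPM in the Rosa26-edited libraries of r770. The r595 libraries were at 130.1 against 141 and 171 CPM, and in r711 at 149.9 and 160.0 CPM. Rosa26-edited 3 was the lowest of all 11, so the groups overlapped. The log2 fold change was -0.24 ± 0.13 (edgeR adjusted p = 0.537). F2 had 0.13 ± 0.13, F7 0.03 ± 0.12 and F10 0.01 ± 0.12. F7 and F10, adjacent on chromosome 8, gave F10 over F7 ratios per kilobase of 6.19 to 8.69.

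Of the cofactor F5 and the factor XIII carrier F13b, neither lay far from 0, at 0.01 ± 0.19 and -0.07 ± 0.13. F5 was among the more variable genes, with a residual SD of 0.31 on the log2 scale, against a median of 0.185 for the 36 genes and 0.212 for tested genes at 10 CPM or more.

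The contact and intrinsic genes differed among themselves in direction. Klkb1 was at 187, 202 and 146 CPM in the WRE-edited and 285, 184 and 203 CPM in the Rosa26-edited libraries of r770. In r595 Klkb1 was at 139 against 150.3 and 176 CPM, and in r711 at 256 and 247 CPM. The 2 r711 libraries were exceeded by Rosa26-edited 1 alone. Its log2 fold change was -0.30 ± 0.15 (edgeR adjusted p = 0.525), and -0.02 without a run term.

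F11, the gene beside Klkb1 (F11 at chr8:45240659-45262055, Klkb1 at chr8:45266688-45294835), went the other way in r711. It was at 31.3, 30.9 and 27.6 CPM in the WRE-edited and 30.3, 31.6 and 35.0 CPM in the Rosa26-edited libraries of r770. The r595 values were 32.7 against 40.6 and 60.6 CPM, and in r711 at 20.3 and 24.2 CPM, the lowest of all. The log2 fold change was -0.26 ± 0.15 (edgeR adjusted p = 0.557), with -0.11 within r770 and -0.60 within r595. Without Rosa26-edited 5, the library at 60.6 CPM, it was -0.15, and without WRE-edited 6 it was -0.11. Klkb1 over F11 per kilobase ran from 1.19 to 1.74 in r595, 2.16 to 3.71 in r770 and 4.19 to 5.18 in r711.

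F12 (factor XII, the protease that starts contact activation) was at 294, 316 and 336 CPM in the WRE-edited and 276, 264 and 307 CPM in the Rosa26-edited libraries of r770. Its r595 level was 340.3 against 287 and 248 CPM, and in r711 at 261 and 239 CPM. WRE-edited 6 was the highest and WRE-edited 5 the lowest of all 11 libraries, so the WRE-edited group spanned the other. Its log2 fold change was 0.22 ± 0.11 (edgeR adjusted p = 0.527), and 0.11 without a run term.

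Among the anticoagulants, Serpind1 (heparin cofactor II, a thrombin inhibitor) did not overlap between edits within r770 or within r595. It was at 412, 385 and 373 CPM in the WRE-edited and 432, 413 and 438 CPM in the Rosa26-edited libraries of r770, and at 327 against 383 and 413 CPM in r595. In r711 it was at 417 and 415 CPM, inside the range of the Rosa26-edited group. The log2 fold change was -0.18 ± 0.10 (edgeR adjusted p = 0.566), and -0.10 without a run term. Groups without overlap in r770 were found for 2 of the 36 genes, against 7.64% of all genes, and without overlap in both runs in the same direction for the same 2 genes, against 4.31%. Over all 11 libraries 0 of 36 were without overlap, against 0.375%. Serpinc1 had 0.11 ± 0.13, Proc 0.11 ± 0.11 and Pros1 -0.13 ± 0.10.

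**Figure D4:**
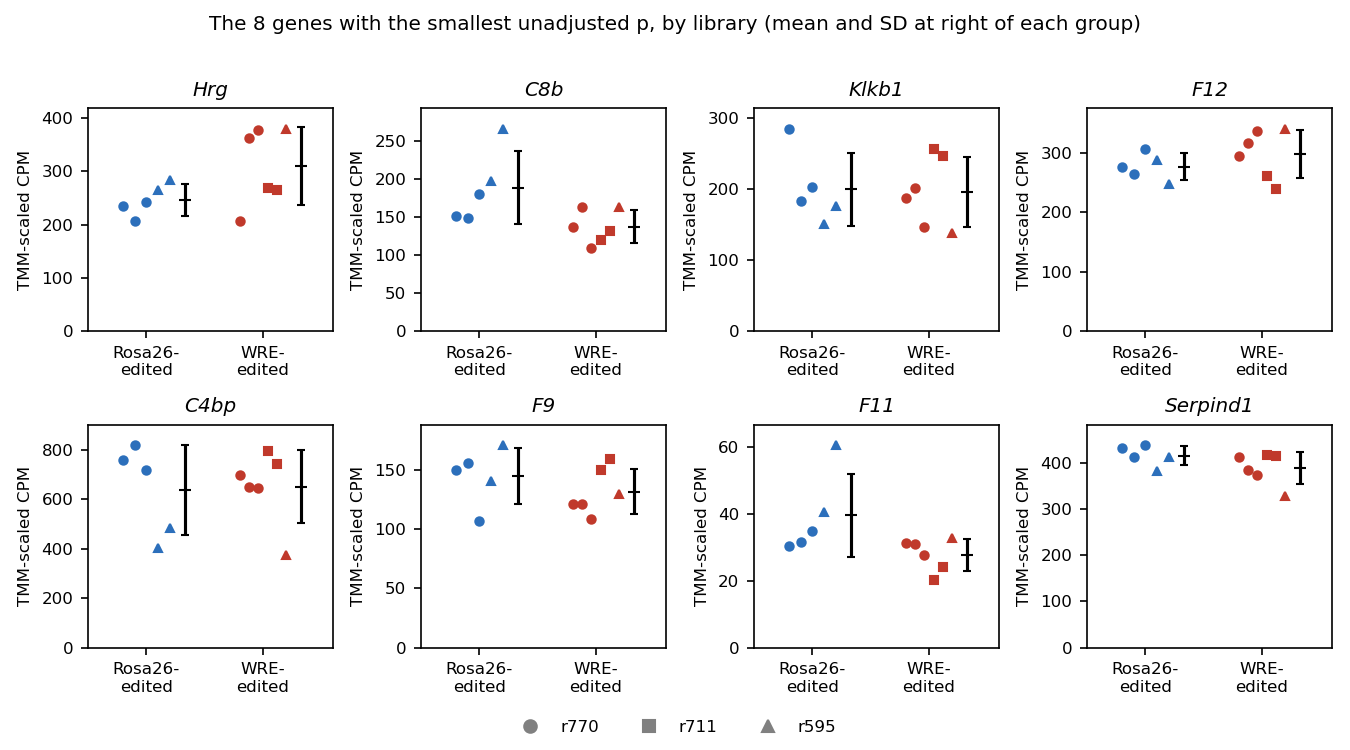
TMM-scaled CPM of the 8 genes with the smallest unadjusted p, 1 point per library (colour for the edit, shape for the run), with the mean and SD at the right of each group (n = 5 Rosa26-edited, n = 6 WRE-edited). Both groups overlap in every panel, and the r595 triangles of C4bp lie apart from the other points of both groups.

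The lectin pathway genes recognise sugars on microbes (Mbl1, Mbl2) or cleave C4 and C2 (Masp2), with Masp1 activating Masp2. Their log2 fold changes were 0.18 ± 0.13 for Mbl1, -0.15 ± 0.20 for Mbl2, -0.14 ± 0.16 for Masp1 and -0.01 ± 0.12 for Masp2. Mbl2 varied more, from 463 to 902 CPM, with a residual SD of 0.35. Mbl2 over Mbl1 per kilobase ran from 2.18 to 6.25 over the 11 libraries.

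C3 was at 7485, 10268 and 7671 CPM in the WRE-edited and 7928, 5098 and 8351 CPM in the Rosa26-edited libraries of r770. In r595 C3 was at 12555 against 11692 and 13669 CPM, and in r711 at 8016 and 7429 CPM. All 3 r595 libraries lay above the other 8, whichever the edit. The log2 fold change between edits was 0.17 ± 0.17 (edgeR adjusted p = 0.734). C4b had 0.16 ± 0.27 and the largest residual SD of the 36, 0.48, with 427 CPM in Rosa26-edited 2 and 1295 CPM in WRE-edited 2. Its direction turned without WRE-edited 2 (-0.10), without Rosa26-edited 2 (-0.05) and without a run term (-0.04). Its reads may be shared with C4a, a near-identical neighbour, so its level is uncertain. Cfb, also on chromosome 17, had -0.12 ± 0.14.

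The 2 regulators differed in how much they varied. Cfi had a log2 fold change of 0.03 ± 0.11 and a residual SD of 0.07. C4bp, which helps factor I to inactivate C4b, was at 701, 649 and 645 CPM in the WRE-edited and 759.6, 819 and 718 CPM in the Rosa26-edited libraries of r770, which did not overlap. In r595 C4bp was at 375 against 404 and 484 CPM, also without overlap, and in r711 at 795 and 744 CPM. The r711 values reached above those of the Rosa26-edited libraries 1 and 3. Its log2 fold change was -0.22 ± 0.11 (edgeR adjusted p = 0.531), and 0.03 without a run term.

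The 5 terminal complement genes all had negative values, with a median log2 fold change of -0.28 and adjusted p between 0.498 and 0.849 in edgeR, so none passed. C8b, which encodes the β chain that anchors C8 to the growing complex, was at 137, 164 and 109.7 CPM in the WRE-edited and 152, 149 and 180.3 CPM in the Rosa26-edited libraries of r770. The r595 level was 163 against 198 and 266 CPM, and in r711 at 119.8 and 132 CPM. Except for WRE-edited 2 and 6, every WRE-edited library was below every Rosa26-edited library. The log2 fold change was -0.31 ± 0.15 (edgeR adjusted p = 0.498), and -0.23 without Rosa26-edited 5.

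C8a, its neighbour (C8b at chr4:104766317-104804548, C8a at chr4:104815679-104876487), had -0.34 ± 0.21, with -0.16 within r770 and -0.82 within r595. Rosa26-edited 5 was at 714 CPM of C8a, and the other 4 Rosa26-edited libraries ran from 370.5 to 454 CPM. Without that library the value was -0.21, and without WRE-edited 6 it was -0.12. C6 had -0.28 ± 0.17, C9, the pore-forming member, -0.09 ± 0.16 and C8g -0.06 ± 0.11. Without a run term C6 was at 0.04 and C8g at 0.10, so the common direction of the 5 genes did not hold in that fit. Without WRE-edited 6, C9 was at 0.01.

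Differences between runs were larger than those between edits for 26 of the 36 genes, as for 65% of all genes tested. Between r595 and r770, 7 of 36 genes passed in edgeR (adjusted p under 0.05), against 16.2% of all genes. Higher in r595 were C3 (log2 fold change 0.73, adjusted p 0.0164), Plg (0.63, 0.00995), Masp2 (0.44, 0.0308) and Proc (0.37, 0.0384). Lower were C8g (-0.84, 0.000666), C4bp (-0.80, 0.00101) and C6 (-0.73, 0.0168). C4bp was at 375 to 484 CPM in r595 and at 645 to 819 CPM in the other libraries. C8g was at 75.6 to 91.1 CPM in r595 and at 141 CPM or more in the others. The runs differ in mitochondrial ribosomal RNA as given above, and its part in these differences was not tested.

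**Figure D5:**
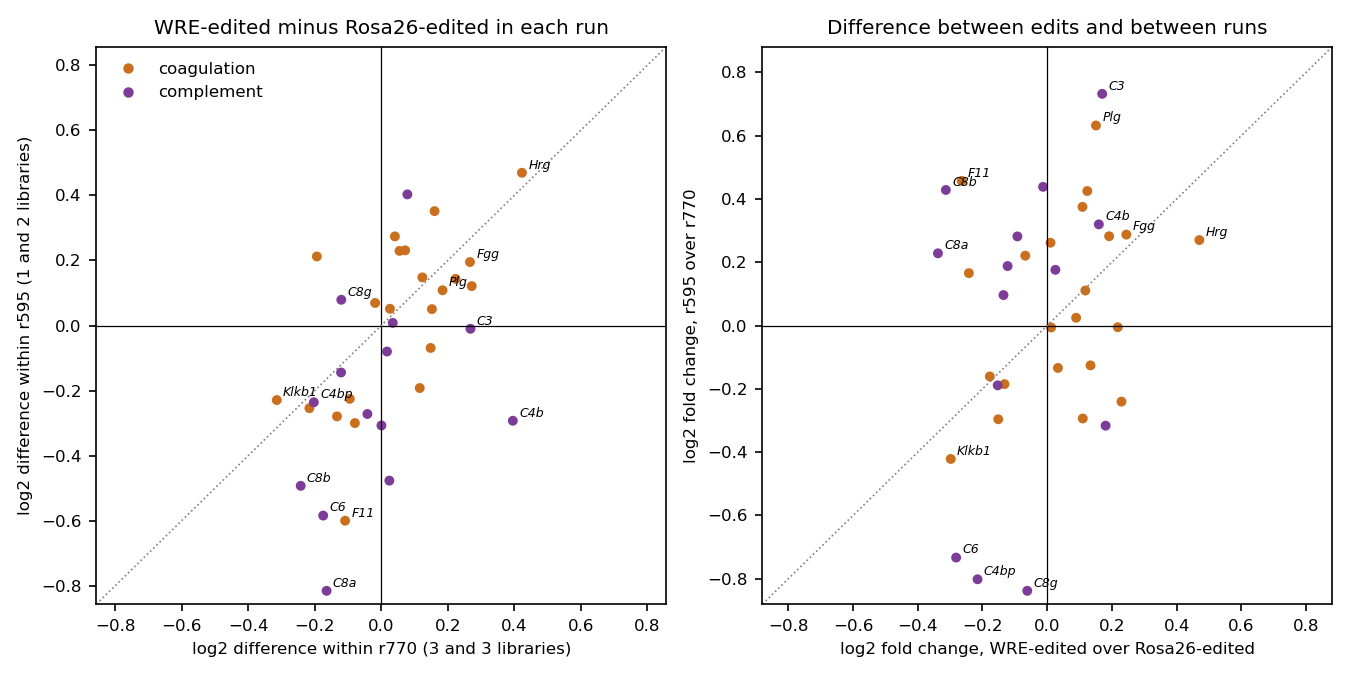
Left, the log2 difference between edits within r595 against that within r770 for each gene; right, the log2 fold change between runs r595 and r770 against that between edits, with dotted lines of equality. Hrg lies up and right in the left panel, and C8g, C4bp and C6 lie lowest and C3 highest in the right panel.

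Other genes of both systems were read in the same fit. Of 25 other coagulation genes, 23 were tested, 0 passed in edgeR or DESeq2, and their median log2 fold change was 0.01. At an unadjusted p under 0.05 in edgeR 1 was lower, against 5.14% of all genes. It was Lman1 (-0.27 ± 0.11), a cargo receptor for the secretion of factors V and VIII. Of 25 other complement genes, 22 were tested, 0 passed with either tool, and 4 had a positive value, with a median of -0.26 against 0.01 for all genes. At an unadjusted p under 0.05 in edgeR 5 were lower and 0 higher, against 5.14% and 4.95% of all genes. Among them were Cd55 (-0.70 ± 0.26), a membrane inhibitor of the convertases, Colec10 (-0.57 ± 0.22), a collectin, Cd59a (-0.25 ± 0.11), a membrane inhibitor of the attack complex, and Cfhr2 (-0.34 ± 0.16), the last named after its values were seen. Macrophage markers (0 of 10 positive, median -0.45) and stellate cell and fibroblast markers (0 of 10 positive, median -0.58) also lay below 0. The part of these markers in the complement values was not tested. Colec11 (-0.44 ± 0.25) is in both the other complement list and the stellate cell and fibroblast list.

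The acute phase list (20 of 20 tested) had 0 genes that passed and 0 at an unadjusted p under 0.05 in edgeR, with a median of -0.14. Its smallest p values were those of Hp (haptoglobin, -0.39 ± 0.30), Hpx (hemopexin, -0.34 ± 0.27), Cp (ceruloplasmin, -0.32 ± 0.26) and Saa4 (-0.29 ± 0.25). Of the 14 liver transcription factors, 13 had positive values, with a median of 0.42. In edgeR 0 passed and 7 were higher at an unadjusted p under 0.05, against 4.95% of all genes. DESeq2 called 2 of the 14 higher, where it called 0.6% of all genes in either direction. They were the forkhead factors Foxa2 (edgeR 0.80 ± 0.17) and Foxa3 (0.46 ± 0.10). Cebpb had 0.65 ± 0.18 and Rxra 0.50 ± 0.19. The coagulation genes, with a median of 0.10, and the complement genes, with -0.11, lay nearer to 0 than this list.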

How the data were processed

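For each RNA-seq library the authors deposited a table of expected counts by Ensembl gene. The submitters' processing notes name STAR 2.7.6a, RSEM 1.3.1 and GRCm38, and the file headers are those of RSEM. The sources used here do not give the strand handling or the version of the annotation. The deposited tables also hold other values, effective gene lengths in bases, per the file headers, and TPM, which the authors deposited beside the counts and which served only to check the order of levels. RSEM shares reads between similar genes by estimate. The normalized matrix and the miRNA libraries were not used.

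Counts were rounded to whole numbers. Of 55536 identifiers, 55450 matched a symbol in the gene name table. Coordinates and promoter windows came from RefSeq tables of GRCm38.p6, 1-based. The run was read from the library names, and it matched the deposited design table for 11 of 11 libraries. Testing used R 4.3.3 and edgeR 4.0.16: filterByExpr by group (minimum count 10, minimum total 15), TMM factors, a robust quasi-likelihood fit with run and edit, 7 residual degrees of freedom, two-sided, and Benjamini-Hochberg adjustment over all 14393 genes at 0.05. Standard errors came from the quasi-likelihood statistic. Differences within runs are of mean log2 CPM with a prior count of 2. DESeq2 1.42.0, other scalings, filters and designs, and leaving out each library were the alternatives. Leaving out Rosa26-edited 2 and 5 together was added after the data were seen. Simulated counts with known fold changes were used to test the fit.

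Every gene of the group is named. Values for each library are given for the 8 smallest unadjusted p, the fibrinogen chains and the highest and lowest gene per length, and up to 4 genes by smallest p are named from each other list, where a gene that the rule takes is not reported here. The genes and lists were chosen with earlier results of these data known.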

Additional observations from a re-analysis of the deposited data

Results flagged for a closer look

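In 72 checks, 1 per gene and edit, 9 genes had 1 library far from the others of its group, a gap that chance gives in about 1 group in 20. Of the 9, 5 were in Rosa26-edited 5 and 2 in WRE-edited 6.

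In Rosa26-edited 5, Fgb stood at 2314 CPM with the other Rosa26-edited libraries between 1374 and 1508. In the same library Fgg stood at 1895 CPM (others 1117 to 1259), Cfb at 2195 CPM (others 1418 to 1604), C8a at 714 CPM (others 370.5 to 454) and Cfi at 633 CPM (others 507 to 533). That library also had the highest macrophage sum, 1240 CPM, of which Marco alone gave 370 CPM, and the highest acute phase sum, 24887 CPM. The part of both sums in these values was not tested.

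WRE-edited 6, the only WRE-edited library of r595, had the lowest C8g, 87.7 CPM (others 141 to 156), and the lowest C4bp, 375 CPM (others 645 to 795). Both genes were also low in the Rosa26-edited libraries of r595. In WRE-edited 2 C4b stood at 1295 CPM (others 673 to 857). In Rosa26-edited 2 Serpinf2 was the lowest at 287 CPM (others 366 to 397).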

How the results depend on the processing

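Over 23 alternative fits, 0 of the 36 genes passed in any, and the smallest adjusted p was 0.110 (Hrg, without WRE-edited 1). The median log2 fold change of the group stayed between -0.06 and 0.07, and between -0.04 and 0.07 when single libraries were left out. The libraries' own medians spread by 0.091 (SD, log2), which is not the error of a difference between groups. Of the 36 genes, 15 kept the sign of their log2 fold change in all 23 fits and 21 did not. In 30 cases a value changed sign and also moved by more than its residual SD, all in the 3 fits without a run term. Hrg had an unadjusted p under 0.05 in 18 of 23, fits that all kept the run term and shared most of their libraries. It did not in the 3 fits without a run term, in r770 only, or with the replicate block and the run term. Those 3 included the fit with WRE-edited 4 and 6 summed. Same-numbered deviations correlated at 0.13, -0.09 and 0.18 in r770, so replicate numbers showed no clear pairing. Values this few cannot exclude a pairing of the libraries. With the replicate block and the run term the median was 0.03, and with the block alone -0.06, with 0 genes of the group passing in both. The count over all genes moved from 1 to 83 with DESeq2, 450 without a filter on low counts and 2 with the block and the run term. It fell to 0 without a run term, with r770 only and without r711. Leaving out WRE-edited 2, 3, 4, 5 or 6 or Rosa26-edited 2 also gave 0. Per-length levels by deposited TPM gave a ratio of highest to lowest median of 125, against 105. The intervals used the total degrees of freedom of the quasi-likelihood fit, which add information from other genes to the 7 residual ones. They reach to 0.82 on the log2 scale, and for 10 of the 36 genes the interval extends past 1.5-fold.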
